A study of Mus musculus with 8 samples.

Results

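Of the 42006 probes of a mouse expression array, 382 held in their 60 bases a stretch that can pair with the seed of miR-17 or miR-19, and 272 of these were bright enough in embryonic footpad skin to be compared. The seed of a microRNA is bases 2 to 8 from its 5′ end. A probe was a member when its sequence, read as deposited, held the exact DNA reverse complement of that seed, which is GCACTTT for miR-17-5p and TTTGCAC for miR-19b-3p. The choice used only sequence and brightness, and no difference between groups. Brightness meant that the footpad signal was well above background on both arrays of at least 1 of the 4 groups, which 29199 probes passed. Of the 272 members, 136 held the miR-17 match, 148 the miR-19 match and 12 both, and the other 28927 probes that passed served for comparison. The array files pair no probe with a gene, so members are named by probe identifier, and a match inside a probe is not known to lie in an untranslated region.

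Footpads are the hairless pads of the paw, where the sweat glands of a mouse develop. Their skin was taken at embryonic stages E16.5 and E17.5, and the embryos, on a C57BL6 background, either had Dicer conditionally knocked out (KO) or were wild type (WT). The labels do not say in which cells or by which promoter the deletion was driven, and the Dicer transcript and the markers of skin cell types were not analysed here because no probe is named. Each of the 4 groups had 2 arrays, labelled biological replicates, and 3 to 5 embryos were pooled for each. Cy3 marked the footpad RNA and Cy5 a universal mouse reference on every array, and the 4 arrays of a stage shared 1 slide, so an effect of stage cannot be told apart from one of slide. In such pooled tissue, fewer cells of a type and less RNA per cell cannot be told apart either.

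Dicer is the enzyme that cuts hairpin precursors into mature microRNAs. A mature microRNA guides an Argonaute protein to messenger RNAs, mostly through pairing of its seed with a site in the 3′ untranslated region, and the paired transcript is destabilised or translated less. The miR-17 and miR-19 families are made from shared clusters of hairpins and are best known for supporting growth and survival of dividing cells. The study compared KO with WT footpads, and the comparison below asks how the probes that hold these seed matches differed between them.

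Members are defined by the seeds of the microRNAs printed here, from RefSeq's table for GRCm38.p6, with the seed in capitals.
mmu-miR-17-5p: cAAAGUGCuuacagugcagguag
mmu-miR-20a-5p: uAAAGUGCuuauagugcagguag
mmu-miR-20b-5p: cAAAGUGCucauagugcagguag
mmu-miR-93-5p: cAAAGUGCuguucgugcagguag
mmu-miR-106a-5p: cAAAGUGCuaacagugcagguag
mmu-miR-106b-5p: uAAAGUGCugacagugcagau
mmu-miR-6383: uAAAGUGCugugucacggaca
mmu-miR-19a-3p: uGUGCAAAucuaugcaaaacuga
mmu-miR-19b-3p: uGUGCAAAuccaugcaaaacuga
The seed AAAGUGC was shared by 7 mature names and the seed GUGCAAA by 2 names from 3 loci, so a match cannot be assigned to 1 member of a family. Mature miR-17-5p lies at chr14:115043684-115043706 and miR-19b-3p at chr14:115044358-115044380, both on the plus strand, in 1 cluster with miR-20a-5p and miR-19a-3p. A second copy of miR-19b-3p lies at chrX:52741991-52742013 on the minus strand, beside miR-20b-5p and miR-106a-5p. The levels of these microRNAs were not analysed here.

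The matches were rare and spread along the probes. GCACTTT was held by 187 probes of the array (0.445%) and TTTGCAC by 209 (0.498%), and no tested probe held more than 1 match of the same kind. The median first base of the match was base 26 of the probe for miR-17 and base 27 for miR-19, with similar numbers in each part of the probe (44, 44 and 48 miR-17 members and 49, 48 and 51 miR-19 members). The next base was A, which extends the match to an 8-base site (GCACTTTA or TTTGCACA), in 38 miR-17 and 58 miR-19 members. Among the 12 members with both matches, 10 held them overlapping by 4 bases as TTTGCACTTT. Members were poorer in G and C than the other tested probes, with a median GC content of 41.7% against 45% and a range of 23.3% to 66.7%. Members were mostly separate sequences, and 4 pairs, 8 members in all, shared a run of at least 25 bases. Matches to the seeds of let-7a, miR-203, miR-200a, miR-200b, miR-205 or miR-30a, searched in the same orientation, stood in 13 members (4.78%) and in 3.66% of the other tested probes.

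Most members were well measured. Of the 272, 254 were well above background on all 8 arrays (93.4%, against 25278 of the 28927 other probes), 12 passed in 2 or 3 groups and 6 in a single group. Of those 6, 3 passed through KO at E16.5, 2 through WT at E16.5 and 1 through WT at E17.5. The 110 probes left out comprised 88 that were well above background on no array and 22 that were so on 1 to 3 arrays. Members were brighter than the others, with a median average log2 intensity of 9.39 against 8.78. Over the series, 62.0% to 72.0% of probes were well above background on an array, and Pearson's r of M across tested probes was 0.995 to 0.996 for arrays of the same group, 0.984 to 0.993 for KO against WT of a stage and 0.968 to 0.980 for stages of a genotype. M is the log2 ratio of footpad to reference signal, so a difference in M of 1 is a 2-fold change. The median M of the 272 members lay between 0.10 and 0.14 on all 8 arrays, and that of the other tested probes between 0.048 and 0.059.

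At E17.5, 30 of the 272 members were higher and 20 lower in KO than in WT at an adjusted p under 0.05 in limma. This was 11.0% higher and 7.35% lower, where 6.97% and 7.83% of all tested probes were called in these directions. The miR-17 matches gave 16 higher and 9 lower of 136, and the miR-19 matches 17 higher and 11 lower of 148. Differences were small: the median called member differed 1.23-fold, and 1 member passed 2-fold. The median difference over the members was 0.033 on the log2 scale against 0.0050 over all tested probes, and 159 members lay above 0. Both KO arrays lay above both WT arrays for 108 of 268 members (40.3%, against 30.0% of tested probes) and below them for 60 (22.4%, against 28.3%). With each array's log ratios centred on the median in place of loess, the median difference of all tested probes moved from 0.0050 to -0.048, and 6 members were higher and 11 lower. These were 2.21% and 4.04% of the members, beside 0.865% and 4.96% of all tested probes. Without KO E17.5 replicate 1 the members' median difference was 0.038, against 0.0099 over all tested probes. Fewer members were called there, and fewer of all tested probes too. The estimate of background on all spots, which was distorted on KO E17.5 replicate 2, called no member with limma, where 57 had an unadjusted p under 0.05. That setting called few probes of any kind, 0.0171% of all tested probes higher and 0.0959% lower.

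The probe windows that carry the largest E17.5 differences follow, with the seed match in capitals and the deposited orientation. Members with the miR-17 match that were higher in KO come before those that were lower.
Z00006007-1: tcctacaatttaGCACTTTaactgacaatg
Z00074503-1: ccaaaagcttctGCACTTTgcttctgttgt
Z00003194-1: ctcggtttaagaGCACTTTattattgttct
Z00060564-1: gctgtactgtatGCACTTTgatgaagacgt
Z00016309-1: ggagcataaacaGCACTTTcaggctacatt
Z00026662-1: attttataaccatGCACTTTtgtaactgtg
Z00022343-1: agttatttatcaGCACTTTatggaagcaag
Z00004673-1: aaagggaaataaGCACTTTtcctaggtctg
Z00006007-1, which holds the 8-base site, had an M of 3.27 and 3.22 in KO and 2.49 and 2.50 in WT at E17.5. Both KO values were above both WT values, a 1.68-fold rise (log2 0.75, SE 0.11, adjusted p = 0.00382). At E16.5 its M was 2.18 and 1.81 in KO against 1.43 and 1.62 in WT, in the same direction but short of the threshold (adjusted p = 0.0615). The same probe was 1.96-fold higher at E17.5 than at E16.5 in WT and 2.38-fold higher in KO. Z00003194-1, also an 8-base site, had 1.01 and 1.03 in KO and 0.43 and 0.66 in WT at E17.5, a 1.39-fold rise (adjusted p = 0.00677). Its E16.5 values of 0.81 and 0.86 in KO and 0.83 and 0.69 in WT overlapped. Z00060564-1 rose at both stages. Its M was 1.63 and 1.60 in KO and 1.11 and 1.23 in WT at E17.5 (1.36-fold, adjusted p = 0.00341), and 0.84 and 0.72 in KO and 0.33 and 0.38 in WT at E16.5 (1.34-fold, adjusted p = 0.0137). The E16.5 call was lost without KO replicate 1 or either WT replicate of that stage, with differences of 0.36 to 0.45. With median centring neither stage passed (0.30, adjusted p = 0.114 at E17.5, and 0.26, adjusted p = 0.262 at E16.5), and with the processed intensities the E16.5 call was lost (adjusted p = 0.081). Z00074503-1 was far brighter in the reference than in footpad, with an M of -9.12 and -9.16 in KO and -9.73 and -9.68 in WT at E17.5 (1.48-fold, adjusted p = 0.00208). Its spots were marked as non-uniform on all 4 arrays of E16.5 and left out there, and its Cy5 signal was saturated on 1 of those arrays.

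Among the miR-17 matches that fell, Z00016309-1 fell at both stages. Its M was -0.43 and -0.42 in KO against 0.22 and 0.27 in WT at E17.5, 1.59-fold lower (adjusted p = 0.00725). At E16.5 it was -0.42 and -0.75 in KO and -0.11 and 0.17 in WT, 1.53-fold lower (adjusted p = 0.0324), and the groups overlapped at neither stage. The E16.5 call was lost when any 1 of 6 arrays was left out. Z00022343-1, an 8-base site, had -2.04 and -2.00 in KO and -1.61 and -1.56 in WT at E17.5, 1.35-fold lower (adjusted p = 0.00284). Its E16.5 values, -2.58 and -2.70 in KO and -2.47 and -2.40 in WT, differed in the same direction without passing (adjusted p = 0.11). Z00026662-1 had 0.91 and 1.21 in KO and 1.65 and 1.68 in WT at E17.5 (1.53-fold lower, adjusted p = 0.00768), but 1.64 and 1.40 in KO and 1.33 and 1.25 in WT at E16.5. It was dim, and its reference signal was well above background on 2 of the 8 arrays. Its difference between KO and WT at E17.5 was -0.40 with Cy3 alone and -0.36 with the processed intensities, where it did not pass. Z00004673-1, well above background on 1 of the 2 KO arrays, had -0.16 and -0.08 in KO and 0.32 and 0.23 in WT at E17.5, 1.32-fold lower (adjusted p = 0.00717). It was -0.35 on the log2 scale without WT E17.5 replicate 1 and -0.23 with median centring, and passed in neither case. That difference also moved with the background setting, to -0.69 with an offset of 10 and to -1.23 with the processed intensities.

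The corresponding windows with the miR-19 match are shown in the same order, higher members before lower ones.
Z00072652-1: gaatcacttgatTTTGCACatgcagctgag
Z00073926-1: ttggaaggccatTTTGCACagtgttaggca
Z00038943-1: agctctactgtacgtgagcacaTTTGCACa
Z00058962-1: cacccacccccaTTTGCACtgagaagagaa
Z00034255-1: gcagacacgtatTTTGCACagatgtattcc
Z00014880-1: aataaagcatatTTTGCACttgtaaatgaa
Z00039640-1: aaTTTGCACttggtcctaaaaattaacatc
Z00011880-1: ttcTTTGCACccactatttatgtctgaatc
Of the 4 that rose, 3 hold the 8-base site. Z00072652-1 was the 1 member past 2-fold, with an M of 1.66 and 1.82 in KO and 0.72 and 0.53 in WT at E17.5 (2.16-fold, adjusted p = 0.000209). It was dim: its reference signal was well above background on none of the 8 arrays and its footpad signal on neither WT array of E16.5. From Cy3 alone the E17.5 difference was 0.89 on the log2 scale, with a background offset of 10 it was 1.75, and with the processed intensities it was 1.76 and did not pass (adjusted p = 0.118). Z00073926-1 had 2.21 and 2.16 in KO and 1.49 and 1.43 in WT at E17.5 (1.65-fold, adjusted p = 0.00398). Its E16.5 values were 2.16 and 2.11 in KO and 1.43 and 1.82 in WT (1.42-fold, adjusted p = 0.0461), and the E16.5 difference of 0.51 was 0.31 without WT E16.5 replicate 1. That call was lost when any 1 of 7 arrays was left out. Z00038943-1 had 2.33 and 2.26 in KO and 1.64 and 1.54 in WT at E17.5 (1.63-fold, adjusted p = 0.000277). At E16.5 it had 2.15 and 2.14 in KO and 1.84 and 1.92 in WT (1.21-fold, adjusted p = 0.0477), a call lost when any 1 of the 8 arrays was left out. With the background estimated on all spots, the E17.5 differences were -0.15 for Z00073926-1 and 0.06 for Z00038943-1. Z00058962-1 had 0.58 and 0.26 in KO and -0.16 and -0.02 in WT at E17.5 (1.43-fold, adjusted p = 0.0153), while its E16.5 values of 0.36 and 0.39 in KO and 0.34 and 0.52 in WT overlapped. Leaving out KO E17.5 replicate 1 gave an E17.5 difference of 0.35 instead of 0.51, and leaving out WT E17.5 replicate 1 gave 0.44, and it passed in neither case, nor with median centring (0.39) or the processed intensities (0.55).

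The 4 falls with the miR-19 match were between 1.27-fold and 1.37-fold. Z00034255-1, a very bright probe with the 8-base site, had 0.20 and 0.10 in KO and 0.58 and 0.63 in WT at E17.5 (1.37-fold lower, adjusted p = 0.00293). At E16.5 it had -0.17 and -0.19 in KO and 0.14 on the 1 WT array measured, which did not pass (adjusted p = 0.0578). With Cy3 alone its E17.5 difference was -0.19, where it did not pass either. Z00014880-1 had -2.44 and -2.60 in KO and -2.10 and -2.09 in WT at E17.5 (1.34-fold lower, adjusted p = 0.00347), and with the background estimated on all spots the difference was 0.02. Z00039640-1 had -0.61 and -0.63 in KO and -0.19 and -0.26 in WT at E17.5 (1.32-fold lower, adjusted p = 0.00616), and did not pass without WT E17.5 replicate 1 (-0.36). Z00011880-1 had 1.93 and 1.82 in KO and 2.24 and 2.21 in WT at E17.5 (1.27-fold lower, adjusted p = 0.00672). The KO and WT values of these last probes were apart at E17.5 and overlapped at E16.5, where Z00039640-1 had -0.50 and -0.34 in KO and -0.45 and -0.39 in WT, and Z00011880-1 had 1.20 and 1.13 in KO and 1.13 and 1.17 in WT. The test of the change between stages passed for neither (adjusted p = 0.155 and 0.144).

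At E16.5, 7 of 270 members with values in both genotypes were higher and 2 lower in KO. These were 2.59% and 0.741%, where 1.08% and 1.86% of all tested probes were called. The miR-17 matches gave 5 higher and 2 lower. The miR-19 matches gave 3 higher and none lower in limma, where 10 were lower at an unadjusted p under 0.05. The members' median difference was 0.041 on the log2 scale against 0.013 over all tested probes. Both KO arrays lay above both WT arrays for 103 of 266 members (38.7%, against 29.3% of tested probes) and below them for 51 (19.2%, against 23.1%). All 7 members higher at E16.5 were among the 30 higher at E17.5, and 1 of the 2 lower at E16.5 was among the 20 lower at E17.5. The same overlap over all tested probes was not counted, so it is not known whether the members differ in it. The differences at the 2 stages share no array, but their tests share an estimate of spread for each probe from all 8 arrays. The count at E16.5 was fragile: it fell when any 1 of the 8 arrays was left out, as did the calls over all tested probes. Cy3 alone gave 13 higher and 1 lower. These were 4.81% and 0.370% of the members, beside 1.79% and 2.74% of all tested probes.

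A further pair of miR-17 members stood out at E16.5.
Z00003754-1: cggagttagaatgatcaGCACTTTaacaaa
Z00074057-1: acgaactctaattagggtaatgGCACTTTt
Z00003754-1, an 8-base site, had -0.37 and -0.31 in KO and -0.77 and -0.74 in WT at E16.5 (1.33-fold, adjusted p = 0.00695), a call lost without KO E16.5 replicate 2 (0.38). At E17.5 it had -0.57 and -0.50 in KO and -0.82 and -0.83 in WT (1.22-fold, adjusted p = 0.00903), so KO was above WT on every array of both stages. Z00074057-1 had 0.30 and 0.20 in KO and 0.51 and 0.53 in WT at E16.5 (1.20-fold lower, adjusted p = 0.0471). Its E17.5 values of 0.44 and 0.50 in KO and 0.62 and 0.69 in WT did not pass (adjusted p = 0.0654). The call of Z00074057-1 was lost without any 1 of the 8 arrays. Under median centring the E16.5 calls of both probes and of Z00073926-1 and Z00038943-1 were lost (adjusted p = 0.0689 to 0.614), and the processed intensities called no member at E16.5 (58 at an unadjusted p under 0.05). Those intensities called 0.0793% of all tested probes higher and 0.255% lower at that stage.

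Over both stages, with stage as a term in the fit, 36 members were higher and 17 lower in KO. This was 13.2% higher and 6.25% lower, beside 7.79% and 7.90% of all tested probes. The miR-17 matches gave 20 higher and 9 lower, and the miR-19 matches 20 higher and 8 lower. With median centring 6 members were higher (2.21%) and 34 lower (12.5%), beside 0.852% and 12.4% of all tested probes. Under that scaling the median difference of all tested probes was -0.057 and that of the members -0.048.

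Members that held both matches were few, and those called over both stages were all higher in KO. Of the 12, 4 were called higher and none lower by limma, where 5 were higher and 2 lower at an unadjusted p under 0.05. All tested probes were called at 7.79% and 7.90% in these directions, and the other probes weighted to the GC content of these 12 at 9.46% and 7.90%. The differences ran from -0.13 to 0.33 on the log2 scale, with 9 above 0. The 4 windows that hold the smallest p follow, with each seed match that lies in the window in capitals.
Z00077220-1: tatgTTTGCACtgaacataaGCACTTTaca
Z00035371-1: ccaaagaggtgTTTGCACTTTgtaatgata
Z00076637-1: GCACTTTctcttttcttcggggcatggtat
Z00009721-1: ttagagacaaTTTGCACTTTccagaattgt
In Z00077220-1 the matches were separate. Its M was -0.03 and -0.06 in KO and -0.44 and -0.39 in WT at E17.5, and -0.06 and -0.11 in KO and -0.35 and -0.33 in WT at E16.5. KO lay above WT at both stages (1.24-fold over both, adjusted p = 0.00151). Z00035371-1 holds the overlapping form and was bright, with 3.29 and 3.39 in KO and 2.93 and 3.05 in WT at E17.5, and 3.38 and 3.46 in KO and 3.17 and 3.04 in WT at E16.5 (1.26-fold over both, adjusted p = 0.00287). Z00076637-1 has its miR-19 match outside the window, from base 45 of the probe. It had -0.65 and -0.59 in KO and -0.82 and -0.97 in WT at E17.5, and -0.62 and -0.67 in KO and -0.93 and -0.86 in WT at E16.5 (1.20-fold over both, adjusted p = 0.0051). Z00009721-1 had 0.36 and 0.42 in KO and 0.25 and 0.28 in WT at E17.5, and 0.49 and 0.52 in KO and 0.37 and 0.31 in WT at E16.5 (1.11-fold over both, adjusted p = 0.0286). That call was lost when any 1 of 6 arrays was left out. Under median centring the differences of these 4 probes were 0.18, 0.16, 0.13 and 0.0036 on the log2 scale, in the order printed, and none passed (adjusted p = 0.103 to 0.982).

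The members were also counted by the base after the match. At E17.5, 16 of the 96 members with an 8-base site were higher in KO (16.7%) and 5 lower (5.21%), whereas 14 of the 176 without one were higher (7.95%) and 15 lower (8.52%). The latter lie near the 6.97% and 7.83% of all tested probes. For miR-17 the 8-base sites gave 7 higher and 1 lower of 38, and for miR-19 they gave 9 higher and 4 lower of 58. Over both stages, the counts were 15 higher (15.6%) and 4 lower (4.17%) with an 8-base site and 21 higher (11.9%) and 13 lower (7.39%) without, beside 7.79% and 7.90% of all tested probes. The difference between these sets was not tested.

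The same letters were counted in the opposite orientation. AAAGTGC or GTGCAAA stood in 239 tested probes that held neither match as members do. At E17.5, 33 of these were higher in KO (13.9%) and 19 lower (8.02%), with a median difference of 0.048 on the log2 scale against 0.033 over the members. At E16.5, 3 were higher (1.27%) and 5 lower (2.11%), where the members gave 2.59% and 0.741%. Over both stages 32 were higher (13.4%) and 19 lower (7.98%). The opposite orientation of the 8-base sites, in 77 probes, gave 15 higher (19.7%) and 5 lower (6.58%) at E17.5. The share of higher probes among the members was therefore not greater at E17.5 than among probes with the reverse orientation, and the difference between the orientations was not tested. As a sign of which strand the probes carry, the polyadenylation signal AATAAA stood in 6.93% of the array's probes and its reverse TTTATT in 3.36%. Among the members the shares were close, with AATAAA in 13 (4.78%) and TTTATT in 12 (4.41%). The TTT of either match can form part of TTTATT, as in Z00003194-1, but not of AATAAA. The choice of members thus bears on these shares, and in the members this sign does not tell the strand.

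Other probes were weighted to the members' distribution of GC content for the comparison that the choice of members asks for. With these weights 7.45% of the other tested probes were higher and 7.84% lower in KO at E17.5, 1.16% and 1.82% at E16.5, and 8.48% and 7.73% over both stages. Their weighted median difference at E17.5 was 0.0073 on the log2 scale, and that at E16.5 was 0.018. Brightness moved with these shares too. After weighting for GC content and brightness together, which was chosen after seeing the data, 7.92% of the other probes were higher and 8.28% lower at E17.5, and 9.23% and 8.29% over both stages. Beside these stand the members' 11.0% and 7.35% at E17.5 and 13.2% and 6.25% over both stages. In members with a GC content under 35%, the median difference at E17.5 was 0.082 over 17 members against 0.029 over the other probes of that class. In those of 55% or more it was -0.019 over 24 members against -0.010. The classes between had members' medians of 0.034, 0.037, 0.040 and 0.0072, by rising GC content. The other probes there had 0.020, 0.0098, -0.00034 and -0.0053. At E16.5 the members' median lay above that of the others in the classes under 45% and below it in those from 45%.

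On each array the members' median M was also set against the GC-weighted median of the other probes. At E17.5 the members exceeded it by 0.058 and 0.034 on the KO arrays and by 0.043 and 0.046 on the WT arrays, so the WT values lay inside the range of the KO values. The means were 0.046 ± 0.017 (SD, n = 2) in KO and 0.044 ± 0.0023 (SD, n = 2) in WT, a difference of 0.0017. At E16.5 the excess was 0.053 and 0.011 in KO and 0.040 and 0.050 in WT, and the difference of means was -0.013. By this measure KO and WT were not separated at either stage. When each probe was first centred on its mean over the 4 arrays of its stage, a step chosen after seeing the data, the values were 0.018 and 0.013 in KO and -0.017 and -0.013 in WT at E17.5. At E16.5 they were 0.013 and 0.010 in KO and -0.0093 and -0.020 in WT. The centred differences were 0.031 and 0.026 on the log2 scale, without overlap of the arrays. Probes with the opposite orientation gave differences of -0.018 at E17.5 and -0.061 at E16.5 by the uncentred measure. By the centred measure they gave 0.035 and 0.024, of the other sign, and the arrays overlapped in none of these 4 comparisons.

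The difference between KO and WT changed between stages for 1 of 270 members, higher at E17.5, and for none in the lower direction by limma. All tested probes were called at 0.114% and 0.194% in these directions, and 34 members had an unadjusted p under 0.05. The member was Z00072652-1, with a difference of differences of 0.78 (SE 0.12, adjusted p = 0.0469). Since its footpad signal was well above background on neither WT array of E16.5, its WT level there is a bound. Its call was lost when any 1 of the 8 arrays was left out. The value was -0.55 with the processed intensities and 0.64 with Cy3 alone, which called it (adjusted p = 0.0109). For miR-17 matches, where none passed, the smallest p belonged to Z00003194-1 among rises (0.40, adjusted p = 0.241) and to Z00026662-1 among falls (-0.84, adjusted p = 0.072). For miR-19 falls it belonged to Z00011880-1 (-0.36).

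From E16.5 to E17.5, 43 of 270 members were higher and 47 lower in WT, and 40 of 271 were higher and 49 lower in KO. These shares were 15.9% and 17.4% in WT, beside 13.0% and 11.7% of all tested probes, and 14.8% and 18.1% in KO, beside 13.4% and 14.8%. The WT and KO comparisons shared 30 members that were higher and 33 that were lower. This overlap was not counted over all tested probes. Each difference uses arrays of its own, but the tests share an estimate of spread for each probe from all arrays. Both comparisons lie across the 2 slides. The miR-19 matches gave 23 higher and 30 lower of 147 in WT, and the miR-17 matches 21 higher and 18 lower of 135. With median centring the counts were 12 higher and 37 lower in WT and 13 higher and 25 lower in KO. In WT these were 4.44% and 13.7%, beside 4.89% and 8.09% of all tested probes. In KO they were 4.80% and 9.23%, beside 4.55% and 7.68%. Under that scaling the median change of all tested probes was -0.055 in WT and -0.028 in KO. Z00060564-1 was 1.76-fold higher at E17.5 in WT and 1.79-fold in KO, and Z00011880-1 was 2.11-fold and 1.64-fold higher. The change of Z00022343-1 was 1.80-fold in WT and 1.53-fold in KO, so these probes rose with stage in both genotypes whether they were higher or lower in KO.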

How the data were processed

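Footpad and reference RNA were measured on 8 two-colour Agilent arrays. Agilent Feature Extraction 9.5.1.1 quantified the scans, per the file headers, and the deposited spot and background values are linear intensities, not normalized, beside the program's quality marks. The same deposited files hold processed intensities that the program background-subtracted and dye-normalized. The authors' value table holds log10 values. On 24641 probes these were reproduced to within 0.00016 by log10 of processed Cy3 over Cy5 with each probe's mean log10 Cy5 of all arrays added, so its scale, centring and direction are known, with column medians of 2.23 to 2.24.

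Mean intensities were corrected with normexp (offset 50) in limma 3.58.1 under R 4.3.3. Its parameters were estimated without the 269 to 364 of 43451 spots on an array marked as non-uniform. On all spots the estimated Cy3 background mean reached -320.75 for KO E17.5 replicate 2 and -7.00 for WT E16.5 replicate 1, whereas without the marked spots it lay between 4.81 and 9.14 for all arrays. Marked spots and population outliers were left out, control spots had weight 0 in the loess fit within each array, and spots of 1 probe were averaged. M was fitted over all 8 arrays with 1 mean for each group, and with stage and genotype as terms over both stages, with Benjamini-Hochberg adjustment over all tested probes. A probe without a value on an array (8 of the 272 members) was fitted on the others. With 2 arrays in a group their number limits the precision. The script was tested on simulated data.

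The named probes are, for each match, up to 4 rises and 4 falls with the largest called difference at E17.5 and up to 2 of each at E16.5, with the KO and WT arrays apart. Added to them are the 4 probes with both matches and the smallest p over both stages, and 1 rise and 1 fall with the smallest p for the difference between stages. The parts of the rule that need gene symbols, the lists of targets, microRNA machinery and cell type markers were not analysed here. The members, lists and settings were chosen with earlier results of these data known. Alternatives covered the spots behind normexp, its offset, the processed intensities, median centring, Cy3 alone, the value table, the filter, the replicate number as a block, a stage fitted alone and each array left out.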

Additional observations from a re-analysis of the deposited data

Results flagged for a closer look

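Z00072652-1, a miR-19 match with an 8-base site, was the 1 member whose difference between KO and WT changed between stages in limma's test of that difference, with 0.78 on the log2 scale. Its footpad signal was well above background on neither WT array of E16.5 and its reference signal on no array. Their part in the result was not tested.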

How the results depend on the processing

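The estimate of background on all spots called 0 members at E17.5, at E16.5, over both stages and for the difference between stages in limma (57, 23, 45 and 12 at an unadjusted p under 0.05), and 7 and 3 between stages in WT and KO. Of all tested probes it called 33, 0, 42, 0, 474 and 237 in these comparisons, in the same order. At E17.5, instead of 50, the processed intensities called 32, median centring 17, the authors' matrix 33 and the stage fitted alone 32. Of all tested probes these settings called 2633, 1690, 2692 and 3082, instead of 4295. At E16.5, instead of 9, the processed intensities called 0 (58 unadjusted), the authors' matrix 1, an offset of 10, the replicate block and the stage fitted alone 2 each, median centring and no filter 3 each, and Cy3 alone 14. Of all tested probes these settings called 97, 112, 303, 461, 372, 671, 516 and 1314, in that order, instead of 854. The difference between stages was called for 2 members with Cy3 alone and for 0 under the other settings, leaving out arrays aside. Median centring called 49 members between stages in WT and 38 in KO, instead of 90 and 89. Of all tested probes it called 3767 and 3547, instead of 7177 and 8164. Leaving out each array gave 21 to 42 calls at E17.5, 2 to 3 at E16.5, 32 to 47 over both stages, 0 to 1 for the difference between stages, 51 to 85 between stages in WT and 37 to 88 in KO. At E17.5 the count fell by over 1.5 times without KO replicate 1 (21), KO replicate 2 (24) or WT replicate 1 (23) of that stage. Over both stages it did so without KO E17.5 replicate 2 (32) or WT E17.5 replicate 2 (34). The stage counts did so in WT without WT E16.5 replicate 1 or WT E17.5 replicate 2. In KO they did so without KO E16.5 replicate 2 or KO E17.5 replicate 1. Calls over all tested probes were fewer too in each of these comparisons when any 1 array was left out. The falls were therefore not particular to the members.

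The members' median M minus the GC-weighted median of the others, KO minus WT, was 0.0017 at E17.5. It was -0.020 with normexp on all spots, -0.021 with median centring, 0.019 with the processed intensities, 0.182 with Cy3 alone, 0.181 with the authors' matrix, 0.027 with only probes well above background on all 8 arrays, 0.030 with 8-base sites only and 0.031 with centred probes. At E16.5 it was -0.013, against 0.016 with median centring, 0.018 with Cy3 alone, 0.021 with the authors' matrix and 0.026 with centred probes. Leaving out each array gave -0.010 to 0.014 at E17.5 and -0.034 to 0.0076 at E16.5. The values with Cy3 alone and the authors' matrix are not of M. They compare medians of log2 intensity, a different measure from the rest. Taken probe by probe, the members' median E17.5 difference was 0.029 with Cy3 alone and 0.044 with the matrix. Over all tested probes it was 0.0056 and -0.0032.

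The 31 results for named probes include some that did not pass in the main fit, such as the E16.5 difference of Z00034255-1. With normexp on all spots none of the 31 passed: 24 lost their call in the same direction and 3 were reversed. In the same direction, 13 no longer passed with median centring, 9 with the processed intensities and 5 with the replicate block. The difference of Z00072652-1 between stages was -0.015 with normexp on all spots, -0.55 with the processed intensities and -0.55 with the authors' matrix. With normexp on all spots, the E17.5 differences of Z00073926-1 and Z00014880-1 were -0.15 and 0.020. The cause of these changes was not tested.

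The labels do not say that a replicate number pairs KO with WT, and same-numbered deviations correlated at -0.22 (E16.5) and -0.01 (E17.5). Under a block for the replicate number, 38 members were called at E17.5, 2 at E16.5 and 45 over both stages. It called 0 for the difference between stages (26 unadjusted), and 78 between stages in each genotype. Of all tested probes the block called 3319, 461, 3554 and 49 in these comparisons, and 6450 in WT and 7291 in KO between stages. Without the block these were 4295, 854, 4567, 89, 7177 and 8164, in the same order.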
